A study of Mus musculus with 8 samples.

Results

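The ligands described here are surface proteins that act between macrophages and the cells they contact, above all T cells: Cd80, Cd86, Cd40, Cd83, Tnfsf9, Icosl and Icam1 on the stimulating side, and Cd274 (PD-L1), Pdcd1lg2 (PD-L2) and Cd200 on the restraining side. Members were taken by gene symbol, and every probe with a listed symbol was kept. Of the 10 listed genes, 9 were found on the array with 15 probes, out of 18138 gene symbols and 25697 probes in all. Icosl was found under no probe symbol and was not analysed here. All 15 probes passed the filter on detection, which 13868 probes passed in all.

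Expression was measured on 8 Illumina bead arrays, 2 for each of 4 groups. Bone marrow-derived macrophages came from female C57bl/6J mice aged 8 weeks, either wild type (WT) or deficient in inducible nitric oxide synthase (iNOS-/-, gene Nos2), and all cells had been cultured for 7 days in GM-CSF (10 ng/ml). The unstimulated groups (CON) received nothing further, whereas the M1 groups, named for classically activated macrophages, received LPS (200 ng/ml) and IFN-γ (10 ng/ml) for 6 h. Whether both arrays of a group stand for separate mice or cultures is not given in the labels, so every p-value measures the spread between these arrays, which may be technical. The study's methods take the iNOS-deficient mice from the mutant line B6.129P2-Nos2tm1Lau/J, which carries the mutation throughout the culture and not only during stimulation.

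T cells need a second signal beside recognition of antigen. CD80 and CD86 deliver it through CD28 and can withdraw it through CTLA-4, which binds the same pair of ligands. CD40, a receptor of the TNF family, receives CD40 ligand from activated T cells and in turn licenses the antigen-presenting cell. PD-L1 and PD-L2 engage PD-1 and dampen T cells, and CD200 restrains myeloid cells through CD200R1. LPS acts through TLR4 and NF-κB and IFN-γ through its own receptor, and both pathways are textbook inducers of these genes in macrophages.

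Several genes had more than 1 probe, and these probes did not all give the same result, so the stretches they read are shown. The lines give the first 30 of 50 bases of each probe of Cd40 and Cd200 and of the overlapping pair of Cd86, as the array annotation gives them, with the start of the probe in its transcript; capitals mark the bases shared by the Cd86 pair.
Cd86 2381: cCGCTGGCAGGGCTCATGCTTGTAATGTGT
Cd86 2383: CGCTGGCAGGGCTCATGCTTGTAATGTGTC
Cd40 751: ttcagccctgtcgaaccagcctcctgactc
Cd40 793: agtcgcatctcagtgcaggagcggcaggtg
Cd40 1010: ttaaggatggagggagagctcgggcatcgg
Cd40 1408: gagggttgtcatttgacctccatgtgtgct
Cd200 1157: ccagctctcagaccgactagggctcccatc
Cd200 1642: gtagttcacatctttacaaaagcatgcttt
The Cd40 probe at 751 is annotated to transcript variant 3 and the other Cd40 probes to transcript variant 5. No run longer than 5 bases was shared among the Cd40 probes, whereas the Cd86 probes at 2381 and 2383 shared 49 bases and were not independent measurements. The third Cd86 probe starts at base 30 of its transcript.

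The 250 bases before the RefSeq start of each gene (GRCm38.p6) were searched for the NF-κB consensus and for the IRF motif GAAANNGAAA, on both strands. Of 32851 such windows, 7.25% held an NF-κB match and 2.98% an IRF match. Windows were given for 5 of the 9 genes. The 1 window with a match is printed 5′ to 3′ on the gene's strand, with the match in capitals.
Pdcd1lg2: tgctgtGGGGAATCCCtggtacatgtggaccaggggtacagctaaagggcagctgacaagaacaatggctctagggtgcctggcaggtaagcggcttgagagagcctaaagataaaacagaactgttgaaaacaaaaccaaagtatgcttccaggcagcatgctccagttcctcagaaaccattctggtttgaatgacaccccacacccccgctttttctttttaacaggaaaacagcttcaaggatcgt
In Pdcd1lg2 (chr19:29410669-29410918, plus strand) the capitals mark an NF-κB match. The windows of Cd80, Cd274, Icam1 and Cd200 held no full match to either pattern. The NF-κB pattern had to start with GGG and end with CC on either strand, so close variants were not counted. The Icam1 window holds such a variant, tggaaattcc, so the lack of a match does not mean the lack of a site. A match describes letters and was not tested as a binding site.

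The arrays were alike in detection and in the spread of replicates, but not in brightness. Scale factors were 0.81 to 0.89 on the CON arrays and 1.10 to 1.30 on the M1 arrays. The mean intensity before scaling was 155 and 167 on the WT M1 arrays and 208 to 224 on the others. Between 46.0% and 49.3% of probes were detected per array (detection p under 0.05), and the median difference between both arrays of a group ranged from 0.16 to 0.19 on the log2 scale. Nos2, the targeted gene, was not detected in unstimulated cells. It reached a log2 scaled intensity of 7.47 and 7.05 on the WT M1 arrays and of 7.49 and 7.67 on the arrays labelled iNOS-/- M1, a difference of 0.32 (SE 0.32) that did not pass the test (limma adjusted p = 0.44). The probe starts at base 3546 of the transcript, and where it lies relative to the mutation is not given in the sources used here, so Nos2 does not check the genotype labels. All 7 macrophage markers on the array were detected in every group. The summed intensity of 10 dendritic cell markers was 295 to 327 in WT CON, 6116 to 6165 in WT M1, 4450 to 4649 in iNOS-/- CON and 17782 to 18845 in iNOS-/- M1, so it rose in the same order of groups as most ligands below. Of its 10 genes, Itgax, Zbtb46, Ccr7, Fscn1 and Il4i1 were detected on all 8 arrays, Dpp4 on 6, Cd209a on 4, Clec9a on 2, Xcr1 on 1 and Flt3 on none. Group means in log2 scaled intensity, in the order WT CON, WT M1, iNOS-/- CON and iNOS-/- M1, were 2.79, 5.46, 5.40 and 6.16 for Zbtb46, 0.96, 8.64, 8.81 and 9.79 for Dpp4, and 3.34, 9.18, 7.43 and 10.50 for Fscn1. Ccr7 stood at 3.66, 7.92, 7.24 and 10.88. Il4i1, at 6.24, 12.16, 11.75 and 13.75, was the brightest of the list outside WT CON and weighed most in those sums. The order of the sums held for Fscn1, Ccr7 and Il4i1. Dpp4 stood higher in iNOS-/- CON than in WT M1, and Zbtb46 was nearly level between those groups. Itgax and Cd209a did not share the order. Itgax stood at 7.58, 7.98, 7.98 and 7.54. Cd209a was undetected in WT CON and iNOS-/- M1 and read 4.97 in WT M1 and 5.29 in iNOS-/- CON. The summed intensity of 7 granulocyte markers was 1123 to 1142 in WT CON, 1393 to 1500 in WT M1, 1680 to 1737 in iNOS-/- CON and 3860 to 3984 in iNOS-/- M1, and that of 8 markers of dividing cells was 577 to 656 in WT CON, 1795 to 1922 in WT M1, 2087 to 2093 in iNOS-/- CON and 733 to 735 in iNOS-/- M1. T and B cell markers were at or near 0 apart from Lck, with sums of at most 156 and 11.5. The part of any cell type in the differences below was not tested, and in bulk RNA fewer cells of a type and less RNA per cell cannot be told apart.

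M1 activation raised nearly all of the ligands, in both genotypes. In WT cells, 13 of 15 probes rose and none fell, against 20.8% of all probes tested that rose and 14.3% that fell (limma, adjusted p under 0.05). In iNOS-/- cells all 15 rose, against 25.2% that rose and 25.1% that fell. Counted by the brightest probe, 8 of 9 genes rose in WT and 9 of 9 in iNOS-/- cells, and the median log2 change over the genes was 2.27 and 2.47, beside 0.09 and 0.004 over all probes. After M1 activation 13 probes were higher in iNOS-/- than in WT cells and none lower, against 22.9% and 25.3% of all probes. Already without stimulation 10 probes were higher and 2 lower in iNOS-/- cells, against 16.7% and 15.4%. These comparisons share arrays and so are not independent of each other.

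**Figure D1:**
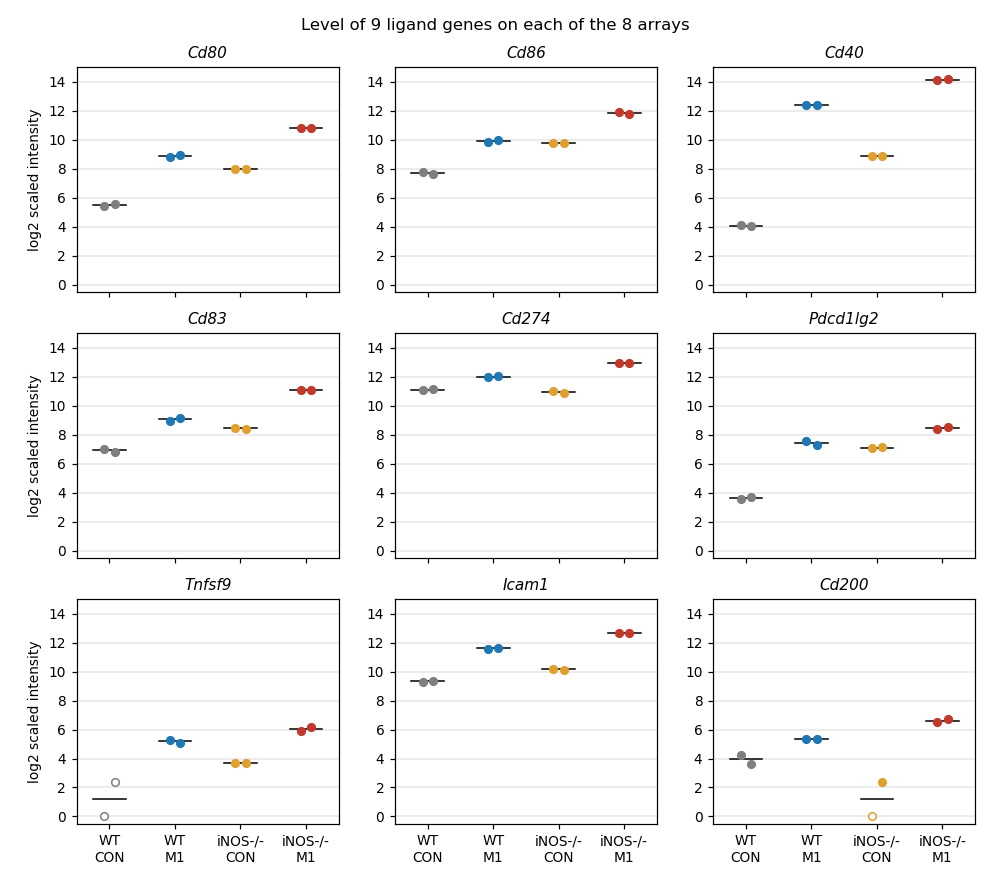
Level of each of the 9 genes (brightest probe) on every array, as log2 scaled intensity, in the 4 groups; points are arrays, bars are group means and open points were not detected. In 7 of the 9 genes the groups rise in the order WT CON, iNOS-/- CON, WT M1, iNOS-/- M1, and Cd274 and Cd200 place iNOS-/- CON lowest.

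Cd80, one of the pair of CD28 ligands, stood at 5.40 and 5.55 in WT CON, 8.80 and 8.95 in WT M1, 7.98 and 7.99 in iNOS-/- CON and 10.83 and 10.80 in iNOS-/- M1, in log2 scaled intensity. No groups overlapped. The M1 rise was 10.5-fold in WT (log2 3.40, SE 0.10, limma adjusted p = 3.98e-05) and 7.12-fold in iNOS-/- cells (log2 2.83, SE 0.10, adjusted p = 4.07e-05). The level in iNOS-/- cells was 5.70-fold that of WT without stimulation (adjusted p = 0.000116) and 3.85-fold after M1 activation (adjusted p = 0.00021). The latter was 3.03-fold with quantile normalization and 2.97-fold with neqc, both still called. The smaller rise in iNOS-/- cells passed the test of the difference (log2 -0.57, SE 0.14, adjusted p = 0.0248), but leaving out WT CON replicate 1, WT M1 replicate 2 or any 1 of the 4 iNOS-/- arrays ended that call, with adjusted p-values from 0.0532 to 0.0831, as did scaling by the median ratio (adjusted p = 0.0644).

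Cd86, the other CD28 ligand, was brightest at its probe at 2383, with 7.76 and 7.68 in WT CON, 9.82 and 9.96 in WT M1, 9.76 and 9.81 in iNOS-/- CON and 11.93 and 11.81 in iNOS-/- M1. At this probe the arrays of WT M1 and iNOS-/- CON lay side by side. WT M1 exceeded iNOS-/- CON by 0.11 on the log2 scale (95% interval -0.14 to 0.36, adjusted p = 0.507). Activation raised Cd86 by 4.51-fold in WT and 4.25-fold in iNOS-/- cells, and the difference in response was -0.08 (95% interval -0.44 to 0.27, adjusted p = 0.666). It was called lower in iNOS-/- cells with quantile normalization (-0.65, adjusted p = 0.014) and with neqc (-0.59, adjusted p = 0.00514), as it was at the overlapping probe at 2381 (-0.62 and -0.54). At each state iNOS-/- cells stood about 2 log2 units higher, by 4.18-fold without stimulation (adjusted p = 0.000198) and 3.94-fold after M1 activation (adjusted p = 0.000209). The latter was 2.91-fold with quantile normalization and 2.88-fold with neqc, both still called. The probe at base 30, which shares no run longer than 5 bases with that pair, ranked the groups alike, with 8.62 and 8.63 in WT M1 against 7.71 and 7.71 in iNOS-/- CON, a difference that passed the test (adjusted p = 0.00429). The call between WT M1 and iNOS-/- CON therefore depended on the probe.

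Cd40 had the widest range of the members. Its brightest probe, at 1408, gave 4.11 and 4.04 in WT CON, 12.38 and 12.41 in WT M1, 8.92 and 8.91 in iNOS-/- CON and 14.12 and 14.17 in iNOS-/- M1. Among all probes of an array it ranked at 63.5% and 62.9% in WT CON and at 99.9% on both iNOS-/- M1 arrays, near the top of the scale. The M1 rise was 320-fold in WT (log2 8.32, SE 0.08, adjusted p = 7.19e-06) and 37.6-fold in iNOS-/- cells (log2 5.23, SE 0.08, adjusted p = 1.40e-05). With normexp background correction (neqc) the WT rise was 166-fold. The levels in iNOS-/- cells were 28.6-fold those of WT without stimulation (adjusted p = 2.12e-05), or 15.6-fold with neqc. After M1 activation they were 3.36-fold (adjusted p = 0.00017), or 2.48-fold with quantile normalization or neqc, still called. The smaller log2 rise in iNOS-/- cells, by -3.09 (SE 0.11, adjusted p = 0.000147), remained past the threshold under all 17 alternatives.

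The other Cd40 probes gave the same order of groups wherever both groups were detected. The probe at 793 was undetected in WT CON and read 10.83 and 10.73 in WT M1, 6.77 and 6.67 in iNOS-/- CON and 12.87 and 12.99 in iNOS-/- M1. The rise in WT was at least 313-fold (adjusted p = 0.000214) and that in iNOS-/- cells 74.0-fold (adjusted p = 0.000462). Over the alternatives the smallest log2 rise at this probe was 6.63 in WT and 5.54 in iNOS-/- cells. The probe at 1010 read 2.64 and 2.47 in WT CON, 8.73 and 8.70 in WT M1, 5.37 and 4.83 in iNOS-/- CON and 10.80 and 11.03 in iNOS-/- M1, and its rises of 71.5-fold and 56.2-fold did not differ past the threshold (log2 -0.35, 95% interval -1.07 to 0.38, adjusted p = 0.383). With neqc its WT rise was 4.26 in place of 6.16 on the log2 scale, and the difference in response turned and was called higher in iNOS-/- cells with neqc (0.69, adjusted p = 0.0109) and with a floor of 16 (1.10, adjusted p = 0.0361). The probe of transcript variant 3, at 751, was undetected in both unstimulated groups and read 4.34 and 4.82 in WT M1 and 7.30 and 7.31 in iNOS-/- M1, which was 6.62-fold higher (adjusted p = 0.0129), a call lost without WT M1 replicate 1 or either iNOS-/- M1 array (adjusted p from 0.0523 to 0.0651).

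**Figure D2:**
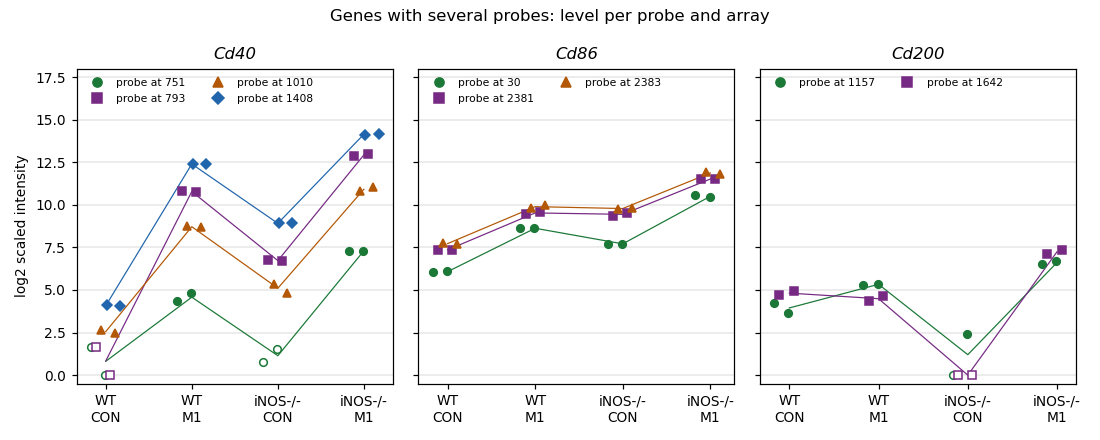
Log2 scaled intensity per array (points, open where not detected) and group mean (lines) for each probe of Cd40, Cd86 and Cd200, named by its start in the transcript. The Cd86 probes and the Cd40 probes at 793, 1010 and 1408 follow each other at different heights. The Cd40 probe at 751 is undetected in both unstimulated groups. Both Cd200 probes drop in iNOS-/- CON and are highest in iNOS-/- M1.

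Cd83, a marker of mature antigen-presenting cells, read 7.00 and 6.83 in WT CON, 8.97 and 9.17 in WT M1, 8.49 and 8.38 in iNOS-/- CON and 11.08 and 11.10 in iNOS-/- M1. It rose 4.46-fold in WT (adjusted p = 0.000215) and 6.32-fold in iNOS-/- cells (adjusted p = 6.26e-05). It was 2.86-fold higher in iNOS-/- cells without stimulation (adjusted p = 0.000752) and 4.05-fold higher after M1 activation (adjusted p = 0.000256). The latter was 3.14-fold with quantile normalization and 3.08-fold with neqc, both still called. The larger rise in iNOS-/- cells missed the threshold (log2 0.50, 95% interval 0.10 to 0.91, adjusted p = 0.0554) and passed it under 5 of the 17 alternatives.

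Tnfsf9 (4-1BB ligand), which costimulates T cells through 4-1BB, was undetected on both WT CON arrays and read 5.28 and 5.09 in WT M1, 3.66 and 3.69 in iNOS-/- CON and 5.87 and 6.21 in iNOS-/- M1. The M1 rise was at least 6.47-fold in WT (adjusted p = 0.0128) and 5.13-fold in iNOS-/- cells (adjusted p = 0.0473). The WT bound holds for the main scaling and floor only. With neqc the WT rise was 2.36-fold and with a floor of 16 it was 2.27-fold, both still called. The unstimulated genotype difference given below was 1.39-fold with neqc and absent with a floor of 16. Leaving out either WT M1 array ended the WT call (adjusted p = 0.0605 and 0.0561), and leaving out either WT M1, iNOS-/- CON or iNOS-/- M1 array ended the iNOS-/- call (adjusted p from 0.0803 to 0.157). The genotypes did not differ past the threshold, either after M1 activation (log2 0.85, 95% interval -1.04 to 2.75, adjusted p = 0.396) or without stimulation (at least 2.27-fold higher in iNOS-/- CON, adjusted p = 0.0578), although the arrays did not overlap; leaving out either WT CON array brought both differences past it (adjusted p from 0.00148 to 0.0188).

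Icam1, the adhesion ligand of LFA-1 that holds the contact between T cell and antigen-presenting cell, was well expressed in every group. It read 9.30 and 9.36 in WT CON, 11.59 and 11.62 in WT M1, 10.20 and 10.15 in iNOS-/- CON and 12.64 and 12.64 in iNOS-/- M1. It rose 4.84-fold in WT (adjusted p = 5.94e-05) and 5.54-fold in iNOS-/- cells (adjusted p = 3.10e-05). It was 1.79-fold higher in iNOS-/- cells without stimulation (adjusted p = 0.0014) and 2.05-fold higher after M1 activation (adjusted p = 0.000471). With quantile normalization these were 1.98-fold and 1.48-fold, and with neqc 1.95-fold and 1.48-fold, all still called. The difference in response was 0.19 (95% interval -0.08 to 0.47, adjusted p = 0.21) and its sign depended on the scaling. It was called lower in iNOS-/- cells with quantile normalization (-0.42, adjusted p = 0.0293) and neqc (-0.40, adjusted p = 0.0228), and higher with a floor of 16 (0.19, adjusted p = 0.0167).

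Among the restraining ligands, Cd274 (PD-L1) was bright before any stimulus, with 11.11 and 11.12 in WT CON and 10.99 and 10.86 in iNOS-/- CON. It read 11.98 and 12.04 in WT M1 and 12.94 and 12.96 in iNOS-/- M1. The unstimulated genotypes did not differ past the threshold (log2 -0.20, 95% interval -0.41 to 0.02, adjusted p = 0.142), but did at the higher floor, 16 (adjusted p = 0.0409), and with a variance trend (adjusted p = 0.0336). Cd274 rose 1.86-fold in WT (adjusted p = 0.00153) and 4.09-fold in iNOS-/- cells (adjusted p = 6.09e-05), and the difference in response was called (log2 1.14, SE 0.12, adjusted p = 0.00185). After M1 activation it was 1.92-fold higher in iNOS-/- cells (adjusted p = 0.000792), or 1.33-fold with quantile normalization or neqc, still called. With quantile normalization the rise in iNOS-/- cells was 2.49-fold and the difference in response 0.41, still called (adjusted p = 0.0442).

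Pdcd1lg2 (PD-L2), the second PD-1 ligand, followed another course. It read 3.54 and 3.70 in WT CON, 7.57 and 7.31 in WT M1, 7.06 and 7.14 in iNOS-/- CON and 8.42 and 8.51 in iNOS-/- M1. Unstimulated iNOS-/- cells were 11.2-fold above unstimulated WT cells (log2 3.48, SE 0.13, adjusted p = 9.41e-05), or 5.19-fold with neqc. They differed from WT M1 by 0.34 (95% interval 0.02 to 0.65, adjusted p = 0.144). The M1 rise was 14.1-fold in WT (adjusted p = 5.43e-05), or 6.20-fold with neqc, and 2.57-fold in iNOS-/- cells (adjusted p = 0.000626), a difference in response of -2.45 (SE 0.18, adjusted p = 0.000652). After M1 activation iNOS-/- cells were 2.04-fold higher (adjusted p = 0.002). The PD-1 ligands thus differed between genotypes in opposite directions of response, with Cd274 rising more and Pdcd1lg2 less in iNOS-/- cells, and both calls held under all 17 alternatives.

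Cd200, ligand of the inhibitory receptor CD200R1, had no called change in WT cells at either probe. Its probe at 1642 read 4.68 and 4.95 in WT CON, 4.33 and 4.65 in WT M1, at the floor on both iNOS-/- CON arrays, and 7.14 and 7.35 in iNOS-/- M1. The WT change was not called (log2 -0.33, 95% interval -0.74 to 0.09, adjusted p = 0.182), though it was called lower with quantile normalization (adjusted p = 0.0431) and neqc (adjusted p = 0.025). In iNOS-/- cells the rise was at least 30.3-fold (adjusted p = 1.55e-05). Unstimulated iNOS-/- cells were at least 5.63-fold below WT (adjusted p = 8.40e-05), and iNOS-/- M1 cells 6.75-fold above WT M1 (adjusted p = 0.000273). Both bounds hold for the main scaling and floor only. Over the alternatives the log2 rise in iNOS-/- cells was as small as 3.17 and the unstimulated difference as small as -0.82, both still called.

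The Cd200 probe at 1157 read 4.24 and 3.65 in WT CON, 5.31 and 5.35 in WT M1, 0 and 2.40 in iNOS-/- CON, where 1 of 2 arrays was detected, and 6.52 and 6.71 in iNOS-/- M1. It rose in iNOS-/- cells (adjusted p = 0.00288), whereas the WT change of 1.39 (95% interval -0.54 to 3.32, adjusted p = 0.22) and the M1 difference between genotypes of 1.28 (95% interval -0.65 to 3.22, adjusted p = 0.223) were not called. Both were called higher with neqc, with a floor of 16 and with only the 4 arrays compared (adjusted p from 2.85e-05 to 0.0387). Leaving out either iNOS-/- CON array, which differed from each other by 2.40, brought both past the threshold (adjusted p from 0.013 to 0.0157). The lower level in unstimulated iNOS-/- cells at this probe (adjusted p = 0.0458) was lost when either WT CON, WT M1 or iNOS-/- M1 array was left out (adjusted p from 0.0735 to 0.162), and with a floor of 16 it shrank to -0.12 (adjusted p = 0.524). The probes thus shared the low iNOS-/- CON level and the rise in iNOS-/- cells, and differed in the sign of the WT change.

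**Figure D3:**
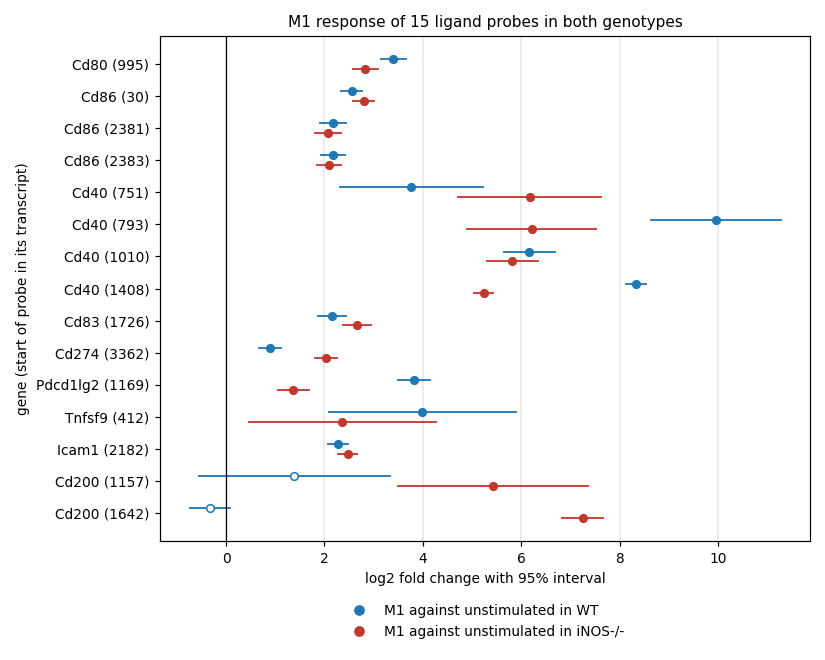
Log2 fold change with M1 activation (dots) and its 95% interval (lines) for each of the 15 probes, in WT and iNOS-/- cells; filled dots passed the limma test, and the number after each gene is the start of the probe. All iNOS-/- dots lie to the right of 0, and the Cd200 dots of WT are open; for groups at the floor the dot depends on the floor.

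The difference in response between the genotypes did not run one way. It was higher in iNOS-/- cells for 3 of 15 probes (Cd274 and both Cd200 probes) and lower for 4 (Cd80, Pdcd1lg2 and the Cd40 probes at 793 and 1408), against 19.4% and 22.6% of all probes. These shares are close to the background. The 4 probes with the smaller rise in iNOS-/- cells stood higher in unstimulated iNOS-/- cells and the Cd200 probes stood lower, and the unstimulated arrays enter both contrasts.

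**Figure D4:**
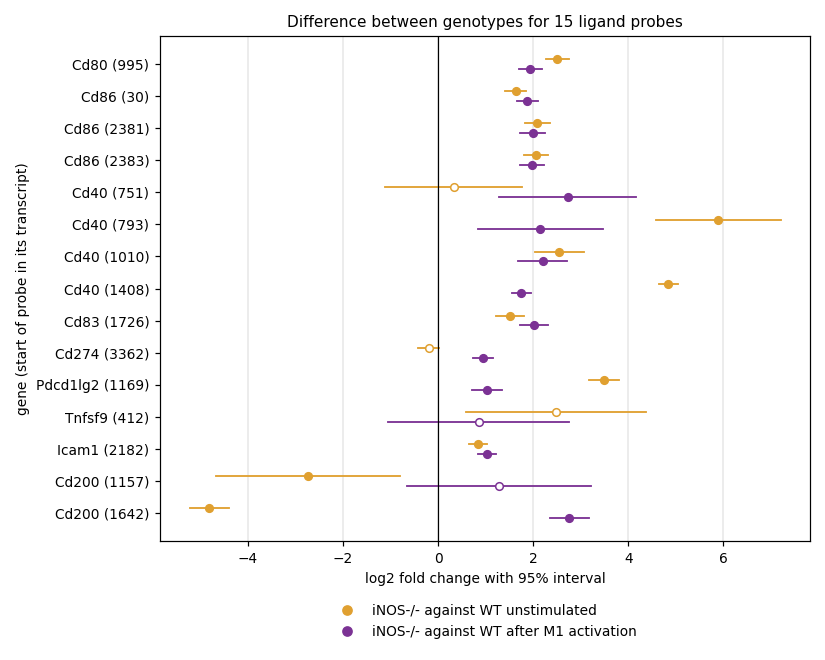
Log2 difference of iNOS-/- from WT cells (dots) with its 95% interval (lines) for each of the 15 probes, unstimulated and after M1 activation; filled dots passed the limma test. Without stimulation the dots spread from -4.82 for the Cd200 probe at 1642 to 5.89 for the Cd40 probe at 793, both of which depend on the floor, and after M1 activation all lie above 0.

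Levels in WT M1 and in iNOS-/- CON, the middle groups of most members, were compared directly. WT M1 was higher for 11 of 15 probes and lower for none, against 9.76% and 3.81% of all probes. Counted by the brightest probe, it was higher for 6 of 9 genes. The differences were 3.48 for Cd40 at 1408 (adjusted p = 9.53e-05), 1.44 for Icam1 (adjusted p = 0.000801), 1.09 for Cd274 (adjusted p = 0.00267), 0.89 for Cd80 (adjusted p = 0.00699) and 0.64 for Cd83 (adjusted p = 0.0255) on the log2 scale. Those for Cd86 at 2381 and 2383, Pdcd1lg2 and Tnfsf9 did not pass the threshold. The largest were 4.49 and 4.13 for Cd200 at 1642 and 1157, where iNOS-/- CON lay at or near the floor. With a floor of 16 these were 0.49, no longer called (limma adjusted p = 0.116), and 1.33. The Cd83 call was lost when any 1 array of either group was left out (adjusted p from 0.0558 to 0.116), and the count fell to 7 without either WT M1 array.

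Other ligands of antigen-presenting cells moved with the members in part. They were counted in a costimulating and a coinhibitory list. Cd276 and Vtcn1 were placed in the costimulating one, a choice that these data do not settle. Of 13 further costimulating ligands 10 were tested, and 5 of these rose with M1 activation in WT, 2 fell and 3 were not called, with 5, 3 and 2 in iNOS-/- cells, against 20.8% of all probes that rose and 14.3% that fell in WT and 25.2% and 25.1% in iNOS-/- cells. The risers in both were the OX40 ligand Tnfsf4, the death receptor 3 ligand Tnfsf15, the CD27 ligand Cd70, Slamf1 and the adhesion ligand Vcam1. Tnfsf4 was undetected in WT CON and read 6.32 and 6.32 in WT M1, 4.64 and 4.43 in iNOS-/- CON and 7.68 and 7.62 in iNOS-/- M1. Tnfsf15 was likewise undetected in WT CON and read 8.73 and 8.96 in WT M1, 2.84 and 3.47 in iNOS-/- CON and 10.28 and 10.39 in iNOS-/- M1. Both thus had the order of groups seen for Cd40. After M1 activation 4 of the 10 were higher and 2 (Tnfsf14 and Cd276) lower in iNOS-/- cells, against 22.9% and 25.3% of all probes, with a median of 0.88 beside -0.03 over all probes.

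Among 12 further coinhibitory ligands 4 were tested. All 4 rose with M1 activation in iNOS-/- cells and were higher there than in WT M1, and all 4 rose more than in WT, as Cd274 did, although the difference for Cd47 was not called with quantile normalization or neqc. Over all probes, 25.2% rose in iNOS-/- cells, 22.9% were higher there after M1 activation and 19.4% had a larger response. Galectin-9 (Lgals9) read 8.93 and 9.02 in WT CON, 8.85 and 8.74 in WT M1, 8.66 and 8.51 in iNOS-/- CON and 10.43 and 10.34 in iNOS-/- M1. Its difference in response was 1.98, beside 1.70 for the TIGIT ligand Pvr, 0.90 for Pvrl2 and 0.73 for Cd47, the ligand of SIRPα, on the log2 scale. With 4 genes this is a description of those genes, and it depends on the list. Cd276, counted with the costimulating ligands, went the other way. It read 3.95 in WT CON, 3.09 in WT M1 and 3.33 in iNOS-/- CON and was undetected in iNOS-/- M1. Vtcn1, also counted there, was not detected on any array.

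Receptors for the members were tested in 7 of 11 cases. With M1 activation 2 rose and 2 fell in WT, against 20.8% and 14.3% of all probes. In iNOS-/- cells 1 rose and 2 fell, against 25.2% and 25.1%. After M1 activation none was higher in iNOS-/- cells, 3 were lower and 4 were not called, against 22.9% of all probes higher and 25.3% lower. Cd28, the receptor of CD80 and CD86, read 7.60 and 7.41 in WT CON, 5.78 and 5.69 in WT M1, 5.34 and 5.32 in iNOS-/- CON, and was undetected in iNOS-/- M1. It fell in WT (log2 -1.77, adjusted p = 0.000538) and was at least 7.15-fold lower in iNOS-/- M1 than in WT M1. Cd200r1, the receptor of CD200, read 7.02 and 7.28 in WT CON, 6.38 and 5.80 in WT M1 and 5.54 and 6.62 in iNOS-/- CON, and was undetected in iNOS-/- M1, at least 9.13-fold below WT M1. It was thus lowest in the group in which Cd200 was highest. Tnfrsf9, the receptor of TNFSF9, read 2.05 and 3.64 in WT CON, 6.81 and 6.68 in WT M1, 7.00 and 7.03 in iNOS-/- CON and 8.10 and 7.88 in iNOS-/- M1.

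**Figure D5:**
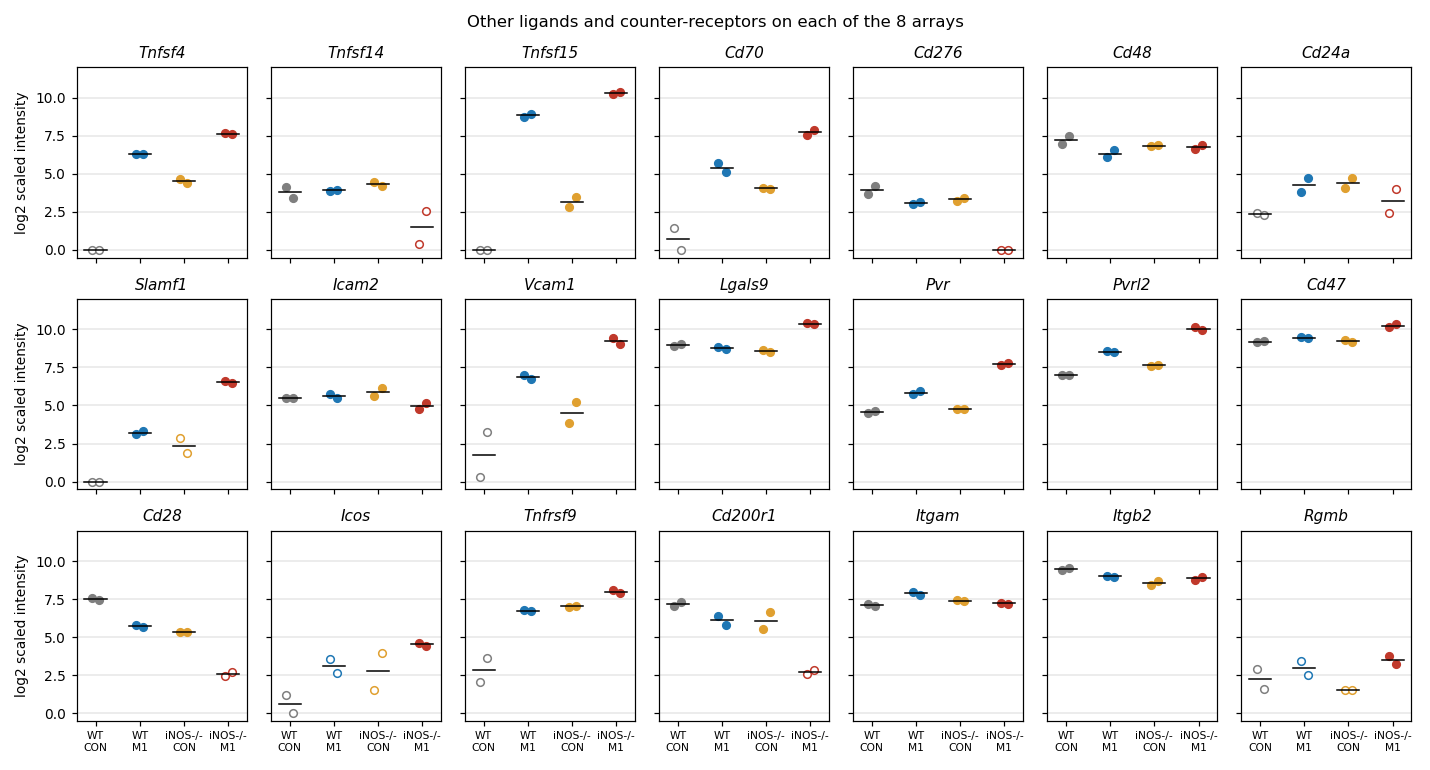
Log2 scaled intensity per array of the 21 further ligands and receptors tested, in the 4 groups; bars are group means, and points are open in groups not detected on both arrays. Tnfsf4, Tnfsf15, Cd70 and Vcam1 rise in the order of Cd40. The 4 ligands of the coinhibitory list, Lgals9, Pvr, Pvrl2 and Cd47, are highest in iNOS-/- M1, and Cd28, Cd200r1 and Cd276 are lowest there.

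The signal paths to these ligands were measured too. Of 14 genes of CD40 and NF-κB signalling, 10 rose in WT and 12 in iNOS-/- cells with M1 activation, and none fell, against 20.8% and 25.2% of all probes that rose. After M1 activation 11 of the 14 were higher in iNOS-/- cells, against 22.9% of all probes, with a median log2 difference of 1.41. Traf1, an adaptor that binds TNF family receptors, read 5.32 and 5.20 in WT CON, 8.84 and 8.52 in WT M1, 7.81 and 8.02 in iNOS-/- CON and 11.20 and 11.23 in iNOS-/- M1. Of 12 genes of IFN-γ signalling, 11 were higher in iNOS-/- M1 than in WT M1 (9 with quantile normalization) and 1 was lower, the receptor chain Ifngr1 (log2 -2.18). Over all probes, 22.9% were higher and 25.3% lower. Irf1, which drives PD-L1 transcription, rose 1.05 in WT and 3.45 in iNOS-/- cells on the log2 scale. Its mean before stimulation was 10.66 in WT CON and 9.67 in iNOS-/- CON, so the lower start enters the larger rise. A part of Irf1 in the Cd274 response was not tested.

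Profiles across the 8 arrays were compared as a description, since the 8 points are 4 groups of 2 arrays and any gene with the same order of groups gives a high correlation. Among genes that were not members, the closest to Cd80 was Gpr84 (Pearson r = 0.9997), to Cd40 at 1408 Marcksl1 (r = 0.999), to Cd83 Psme1 (r = 0.9977), to Cd274 Il15 (r = 0.998), to Pdcd1lg2 Il4i1 (r = 0.999) and to Icam1 Upp1 (r = 0.9995).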

How the data were processed

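RNA of 8 samples was hybridised to Illumina mouse bead arrays, 2 samples in each of 4 groups. Per the labels and the study's methods the authors used GenomeStudio, background subtraction and rank-invariant normalization; the deposited table used here holds non-normalized intensity per probe with a detection p-value, and its values below 0 show that background had been subtracted. The array is named in more than one way in the sources, and the file states no genome build.

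Arrays were scaled to the mean array through probes of nearly constant rank (rank difference under 0.05 of the mean rank, ranks between 0.5 and 0.9 of all probes), values under 1 were set to 1 before log2. A probe entered the test if 2 or more arrays detected it at 0.05, and limma 3.58.1 (R 4.3.3) was fitted as one 4-group model, with Benjamini-Hochberg adjustment over 13868 probes at 0.05. A fold against a group undetected on both arrays is given as a lower bound, against the lowest detected signal of each array or the probe's own, whichever was higher. Such a bound holds for the main scaling and floor, and under other settings some of these folds were smaller. A gene with several probes is counted by its brightest. No depth exists for arrays; the 2 arrays per group limit the precision. Motifs were searched with Python 3.11.15.

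The named genes were all members, Nos2, genes of fixed lists and, per member, the 3 most correlated probes, of which the first is given for some. Members, lists and tests were chosen with earlier results of these data known. The comparison of WT M1 with unstimulated iNOS-/- cells, another 2 ways of fitting the scaling line and a variance trend in limma were added after the data were seen. On simulated data, limma without the trend missed 2-fold changes in some settings and called unchanged probes near the floor. With the trend it did so far less, so counts of calls are approximate. Alternatives were neqc (normexp background correction followed by quantile normalization), quantile normalization alone, the higher floor of 16, dropping the detection filter, requiring detection on all 8 arrays, a replicate block, only the 4 arrays compared, and leaving out each array. No array pair held identical values. Icosl was not analysed here. A withheld item is not reported here.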

Additional observations from a re-analysis of the deposited data

Results flagged for a closer look

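For 7 of 15 probes the M1 response differed between the genotypes by limma's test of the difference itself, iNOS-/- minus WT, on the log2 scale. These were 3 higher and 4 lower, against 19.4% and 22.6% of all probes tested, so the number of calls is close to the background. The difference was 7.57 for the Cd200 probe at 1642 and 4.03 for that at 1157, 1.14 for Cd274, -0.57 for Cd80, -2.45 for Pdcd1lg2, and -3.09 and -3.74 for the Cd40 probes at 1408 and 793. The sizes for Cd200 and for the Cd40 probe at 793 depend on the floor, because a group lay at or near it. With a floor of 16 that for Cd40 at 793 was -0.57 and that for Cd200 at 1157 was 1.40. The latter missed the threshold in 7 of 16 alternatives, with adjusted p-values up to 0.0895. The cause of these differences was not tested.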

How the results depend on the processing

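With 2 arrays per group, calls near the threshold depended on single arrays, and levels near the floor of 1 set the size of some folds. Over 90 log2 differences of members, 15 other settings and 3 more chosen after the data were seen gave 1575 values. Of these, 1441 kept their direction and side of the threshold, 74 lost the call, 43 gained one and 17 turned in sign. A probe not detected on all arrays has no value under the filter that requires it.

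The turned values were as follows, on the log2 scale. With quantile normalization the difference in response became -0.029 for Cd86 at 30 and -0.42 for Icam1, and WT M1 minus iNOS-/- CON became -0.038 and -0.0073 for Cd86 at 2381 and 2383. With neqc the difference in response became 0.69 for Cd40 at 1010, -0.40 for Icam1 and 0.30 for Tnfsf9, and WT M1 minus iNOS-/- CON -0.037 and -0.0072 for Cd86 at 2381 and 2383. With a floor of 16 the difference in response became 1.10 for Cd40 at 1010 and 0.85 for Tnfsf9, and the unstimulated genotype difference of Cd40 at 751 became 0. With the median ratio as scaling the difference in response became 0.054 and 0.067 for Cd86 at 2381 and 2383. Without WT CON replicate 2 and without iNOS-/- CON replicate 2 the unstimulated difference of Cd40 at 751 became -0.51 and -0.053, and with an array left out WT M1 minus iNOS-/- CON for Cd86 at 2381 ranged from -0.0056 to 0.16, the lowest without iNOS-/- CON replicate 1. The cause was not tested.

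Counts of members moved as follows. Probes with a larger response in iNOS-/- cells numbered 3, and 5 with neqc, 8 with a floor of 16 and 5 with a variance trend. Over all 13868 probes the difference was called for 5829, 46.1% of them higher. These were 7078 and 50.8% with neqc, 5940 and 51.6% with a floor of 16, and 6733 and 46.8% with a variance trend. The 8 of 15 with a floor of 16 thus lay further above the share of all probes than the 3 of 15. Member probes with a smaller response numbered 4, and 7 with quantile normalization (5832 calls over all probes, 45.7% higher) or neqc. Those lower in unstimulated iNOS-/- cells numbered 2, and 1 without the detection filter, 0 with detection on all 8 arrays, 1 with only the 4 arrays compared, and 1 to 2 with an array left out. Those that fell in WT numbered 0, and 1 with quantile normalization or neqc. Those higher in WT M1 than in iNOS-/- CON numbered 11, and 7 with detection on all 8 arrays and 7 to 11 with an array left out. In the main settings 15.4% of all probes were lower in unstimulated iNOS-/- cells and 14.3% fell in WT. WT M1 exceeded iNOS-/- CON for 9.76%.

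Of the other ligands and receptors, 5 had a larger response in iNOS-/- cells (3 with quantile normalization, 9 with neqc, 11 with a floor of 16) and 8 a smaller one (5 with neqc or no filter, 2 with a floor of 16 or detection on all 8 arrays). After M1 activation 8 were higher in iNOS-/- cells (4 with detection on all 8) and 5 lower (3 with a floor of 16, 2 with detection on all 8). Without stimulation 6 were higher (3 and 1 under those settings) and 3 lower (5 with neqc). In iNOS-/- cells 10 rose (4 with detection on all 8) and 5 fell (3 with no filter or only 4 arrays, 1 with detection on all 8, 3 to 6 with an array left out). In WT 9 rose (3 with detection on all 8) and 4 fell (2 with a floor of 16, no filter or detection on all 8, 1 with only 4 arrays, 1 to 4 with an array left out). In WT M1 against iNOS-/- CON, 5 were higher (8 with a floor of 16 or a variance trend) and 0 lower (1 with neqc).

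Over all probes, WT M1 against iNOS-/- CON gave 1882 calls, and 3563 with neqc, 3161 with a variance trend, 557 with only 4 arrays and 602 to 758 with an array of either group left out. The WT response gave 4869, and 3193, 3164 and 3238 without WT CON replicate 1 or 2 or WT M1 replicate 2. The unstimulated genotypes gave 4459, and 2778 to 2882 without an unstimulated array. Higher calls made up 59.3% in the WT response (47.4% with quantile normalization, 44.4% with neqc) and 71.9% in WT M1 against iNOS-/- CON (52.0% and 45.2%). Quantile normalization moved the median of all probes from 0.09 to -0.06, from 0.004 to -0.13 and from 0.06 to -0.06 in the WT response, the iNOS-/- response and that comparison.

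Same-numbered arrays did not deviate together (correlations -0.038 to 0.025), so the numbers were not taken to pair samples. With the replicate block, 1 member probe in place of 2 was lower in unstimulated iNOS-/- cells, and 1208 in place of 1882 probes were called between WT M1 and iNOS-/- CON. The block ended the calls of Tnfsf9 in the iNOS-/- response (adjusted p = 0.0534) and of Cd83 (0.0572), Cd200 at 1157 (0.0526) and Cd40 at 751 (0.0507) in that comparison, and that of Cd200 at 1157 between unstimulated genotypes (0.0658).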
